A study of Mus musculus with 12 samples.

Results

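The hypoxia and HIF1 response genes described here are 10 genes of the count matrix, chosen by symbol: Hif1a, Adm, Ero1l, Ddit4, Egln3, Bnip3, Vegfa, Stc1, Ankrd37 and P4ha1. The choice was made with earlier results of these data known, so shares of all genes set beside them are background and not an independent test. They are 10 of the 32699 gene symbols in the matrix, and all 10 were among the 13196 genes that passed the filter on low counts and were tested. Naive mouse CD4+ T cells were activated in culture with antibodies against CD3 and CD28, and RNA was sequenced after 24 h and 48 h from wild-type cells (WT) and from cells that lack Keap1 (KKO). Each of the 4 groups had 3 libraries: WT at 24 h, KKO at 24 h, WT at 48 h and KKO at 48 h. No agent or oxygen level besides the activating antibodies is named, and no group of unactivated cells was analysed here. The labels do not say how Keap1 was deleted, which cells of the animal lack it, or whether libraries came from separate mice, so the p-values measure the spread between these libraries, which may be technical in part. Sex-linked transcripts, given below, differ within groups, so the libraries of a group do not all come from 1 animal. KEAP1 is the adaptor through which a ubiquitin ligase marks the antioxidant factor NRF2 for degradation.

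Hypoxia-inducible factor 1 (HIF1) is a transcription factor made of an oxygen-regulated subunit, HIF1A, and a constant partner, ARNT. With oxygen present, prolyl hydroxylases modify HIF1A and it is degraded through VHL, so its activity is set largely at the level of the protein, which mRNA counts do not measure. In T cells, activation through the antigen receptor and mTOR also raises HIF1A, and its targets serve glucose use, mitochondrial turnover, secretion and feedback on oxygen sensing.

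HIF1 binds a hypoxia response element whose core is ACGTG or GCGTG, so the promoters of the 4 members that differed between genotypes are shown before their levels. Each sequence is the 250 bases before the transcription start from RefSeq on GRCm38.p6 (the build called mm10), 5′ to 3′ in the direction of the gene, in lower case with the cores of either strand in capitals. The stretch of Hif1a is chr12:73907617-73907866 on the plus strand, before an inner start of a gene that spans 73901324 to 73947554. That of Adm is chr7:110627407-110627656 on the plus strand, that of Ero1l (Ero1a in RefSeq) is chr14:45318573-45318822 on the minus strand, and that of Ddit4 is chr10:59951771-59952020 on the minus strand.
Hif1a: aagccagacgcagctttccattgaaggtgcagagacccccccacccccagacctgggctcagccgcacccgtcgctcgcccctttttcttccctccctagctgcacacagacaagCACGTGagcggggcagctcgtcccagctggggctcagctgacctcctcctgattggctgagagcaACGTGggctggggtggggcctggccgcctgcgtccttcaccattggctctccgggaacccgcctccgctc
Adm: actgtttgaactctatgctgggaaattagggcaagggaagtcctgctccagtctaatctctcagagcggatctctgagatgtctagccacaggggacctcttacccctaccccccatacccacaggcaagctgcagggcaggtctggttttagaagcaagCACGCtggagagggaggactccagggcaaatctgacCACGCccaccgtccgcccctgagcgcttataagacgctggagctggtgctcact
Ero1l: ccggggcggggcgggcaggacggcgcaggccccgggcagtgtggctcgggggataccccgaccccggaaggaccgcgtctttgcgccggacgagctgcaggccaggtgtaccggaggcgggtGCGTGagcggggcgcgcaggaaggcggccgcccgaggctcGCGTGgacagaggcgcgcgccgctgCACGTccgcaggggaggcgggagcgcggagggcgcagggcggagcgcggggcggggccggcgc
Ddit4: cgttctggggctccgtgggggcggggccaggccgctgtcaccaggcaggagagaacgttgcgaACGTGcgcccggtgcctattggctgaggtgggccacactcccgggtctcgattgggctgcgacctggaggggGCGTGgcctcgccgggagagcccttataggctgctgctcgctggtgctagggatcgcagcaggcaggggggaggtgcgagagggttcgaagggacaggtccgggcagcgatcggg
Hif1a holds CACGTG, a palindrome read as ACGTG on both strands, 134 bases before the start and a further ACGTG at 70 bases. Adm holds GCGTG on the minus strand at 90 and 54 bases. Ero1l holds GCGTG at 128 and 88 bases and ACGTG on the minus strand at 63 bases, and Ddit4 holds ACGTG at 187 and GCGTG at 115 bases.

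Promoter windows of 300 bases (250 before and 50 after the start) were found for 9 of the 10 members, with 2 windows for Vegfa. At least 1 window of each of the 9 held ACGTG or GCGTG on either strand, against 46.7% of the 27025 genes with windows of the same length. Those 27025 genes were not limited to genes tested here, whereas all 9 members were tested, so the shares are not matched for expression. For Vegfa the matches lie in the window of an inner start, and the window at the outer start of the gene held neither core. ACGTG alone was found for 8 of the 9 members and 21.8% of genes, and GCGTG for 7 of the 9 and 35.2% of genes. TGACNNNGC, the core of the antioxidant response element through which NRF2 acts, was found for Adm and P4ha1, 2 of the 9, and for 14.0% of genes. In Adm it overlaps the nearer GCGTG. A match says that the letters are present and does not show binding.

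Library totals were 17786532 to 32607684 counts, and levels are given as CPM, counts per M (mega) of library total after TMM scaling of the totals. Keap1 was at 106 to 132 CPM in the WT libraries and 15.7 to 22.5 CPM in the KKO libraries. Markers of CD4 T cells (Cd3e, Cd3g, Cd4, Trac, Cd28, Lck and Il2ra) were present in every library and summed to 2180 to 3604 CPM. At 48 h 1 of these 7 was called higher in KKO, Il2ra, a receptor subunit gene raised by activation (1829 against 1135 CPM in WT, adjusted p = 6.81e-05), and the sums were 2652 to 2792 CPM in WT and 3096 to 3604 CPM in KKO. The 5 B-cell markers summed to 8.75 to 11.8 CPM in WT and 17.7 to 26.0 CPM in KKO at 24 h, and to 11.3 to 14.3 CPM and 22.0 to 32.3 CPM at 48 h, with 3 of 5 called higher in KKO at 24 h and 4 of 5 at 48 h. The macrophage list (7 genes) summed to 15.1 to 27.2 CPM over all libraries, with C1qa, Csf1r and Lyz2 near 0, and at 48 h Cd68 was called higher and Mpeg1 lower in KKO. Both CD8 markers were called higher in KKO at 48 h, with sums of 8.32 to 10.6 CPM in WT and 12.7 to 13.4 CPM in KKO. Of the 3 neutrophil markers, S100a9 was at 0 in all libraries and Ly6g was called higher in KKO at 48 h, where the list summed to 0.736 to 3.49 CPM. Of the 4 dendritic-cell markers Flt3 was called higher in KKO at 48 h, where the list summed to 0.598 to 0.987 CPM in WT and 1.64 to 2.58 CPM in KKO. No endothelial, stromal, natural killer or erythroid marker was called at either time, and Cdh5 was at 0 in all libraries. Sex-linked transcripts also differed between libraries: WT replicates 1 and 2 and KKO replicate 2 held Xist with at most 2.81 CPM of Y-linked transcripts at both times, WT replicate 3, KKO 24 h replicate 3 and KKO 48 h replicate 1 held Y-linked transcripts alone, and KKO 24 h replicate 1 and KKO 48 h replicate 3 held both (the mixed libraries). In bulk RNA, fewer cells of a type and less RNA per cell cannot be told apart.

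At 48 h, 4 of the 10 members were called higher in KKO than in WT cells and none was called lower: Hif1a, Adm, Ero1l and Ddit4. A gene was called at an adjusted p under 0.05 in edgeR's quasi-likelihood test over all 13196 tested genes. By this rule 24.3% of all tested genes were called and 12.4% were called higher. Adm was 2.19-fold higher, Ero1l 2.15-fold, Ddit4 1.81-fold and Hif1a 1.33-fold. The log2 differences of all 10 members were above 0, with a median of 0.72, against a median of -0.00 over all tested genes.

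Hif1a, which encodes the regulated subunit itself, was at 487, 479.8 and 556 CPM in WT replicates 1, 2 and 3 at 48 h, and at 701, 587 and 739 CPM in the KKO replicates. Every KKO library lay above every WT library. The log2 difference was 0.41 ± 0.10 (SE) with an adjusted p of 0.00881. Hif1a shares 5.6% of its exon bases with an antisense gene, Gm15283, and whether counting used the strand is not given in the sources used here. It also shares 2.51% with Gm49321, a protein-coding gene on the same strand, which strand use would not separate.

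Egln3 encodes the prolyl hydroxylase PHD3, an oxygen sensor that is itself induced by HIF1. Its WT libraries were at 215, 284 and 416 CPM at 48 h and its KKO libraries at 717, 454 and 614 CPM. The groups did not overlap, but the log2 difference of 0.97 ± 0.32 missed the threshold, with an adjusted p of 0.0573. Under the 24 alternatives it was called in 10, with adjusted p from 0.00127 to 0.209.

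Among the secreted factors, Adm encodes adrenomedullin, a peptide that widens vessels. It was at 4.24, 7.96 and 8.30 CPM in WT and 19.9, 9.51 and 15.6 CPM in KKO libraries at 48 h. The lowest KKO library, replicate 2, lay just above the highest WT library. The log2 difference was 1.13 ± 0.26 (adjusted p = 0.00956). Vegfa encodes the endothelial growth factor VEGF-A, and its libraries overlapped, at 74.7, 79.9 and 85.2 CPM in WT and 95.1, 78.0 and 92.2 CPM in KKO. Its log2 difference was 0.15 ± 0.11 (adjusted p = 0.367). Stc1, the glycoprotein hormone stanniocalcin 1, was at 2.72, 3.80 and 5.31 CPM in WT and 8.80, 3.73 and 7.11 CPM in KKO. Its KKO replicate 2 lay within the WT range, and the log2 difference was 0.73 ± 0.34 (adjusted p = 0.131).

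Ero1l encodes the oxidase of the endoplasmic reticulum that restores protein disulfide isomerase for the next round of disulfide formation. Its WT libraries at 48 h were at 329.8, 397 and 543 CPM and its KKO libraries at 1090.1, 662 and 983 CPM. All 3 KKO libraries were above the highest WT library. The log2 difference of 1.11 ± 0.20 (adjusted p = 0.00432) was called under all 24 alternatives, with values from 0.94 to 1.32. P4ha1 is a catalytic subunit of the prolyl hydroxylase that matures collagen in the same compartment. It was at 111, 123 and 139.6 CPM in WT and 164, 122 and 150.5 CPM in KKO, with overlap, and its log2 difference was 0.22 ± 0.13 (adjusted p = 0.230).

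Ddit4 encodes REDD1, a stress protein that restrains mTORC1. It was at 152, 194 and 248 CPM in WT and at 443, 251 and 382 CPM in KKO libraries at 48 h. The lowest KKO library, again replicate 2, was only just above the highest WT library, replicate 3. The log2 difference was 0.86 ± 0.27 (adjusted p = 0.0447). Bnip3 encodes a receptor in the outer mitochondrial membrane that marks mitochondria for removal. Its WT libraries were at 134, 169.5 and 207 CPM and its KKO libraries at 327, 234 and 275 CPM, without overlap, while the log2 difference of 0.71 ± 0.32 was not called (adjusted p = 0.142). Ankrd37, an ankyrin-repeat protein encoded by a HIF1 target gene, overlapped between groups at 13.9, 18.5 and 21.4 CPM in WT and 23.3, 15.3 and 19.9 CPM in KKO. Its log2 difference was 0.12 ± 0.18 (adjusted p = 0.671). Bnip3 shares 22.3% of its exon bases with the antisense gene Gm45507, and Ankrd37 shares 22.7% with Lrp2bp, so reads of these pairs could have been split.

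Groups at 48 h did not overlap, with KKO higher, for 6 of the 10 members (Hif1a, Adm, Ero1l, Ddit4, Egln3 and Bnip3), as for 17.1% of all tested genes. The summed markers of B cells, CD8 T cells, dendritic cells and neutrophils and the erythroid marker were also higher in every KKO library than in any WT library. So was the CD4 T-cell sum, with means of 3434 CPM in KKO and 2708 CPM in WT. Of these means Il2ra, the only CD4 T-cell marker called, made up 1829 and 1135 CPM. The part of these markers in the differences of the members was not tested. Without the 2 mixed libraries, Ero1l alone was called (log2 1.05, adjusted p = 0.0311), while Hif1a (0.34, 0.0706), Adm (1.10, 0.0536) and Ddit4 (0.81, 0.159) were not. Leaving out a single library ended the call of Ddit4 for WT 48 h replicate 1 (adjusted p = 0.125), WT 48 h replicate 2 (0.0945), KKO 48 h replicate 1 (0.188), KKO 48 h replicate 3 (0.1295) and KKO 24 h replicate 1 (0.0509), and left Hif1a, Adm and Ero1l called in all 12 cases.

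**Figure D1:**
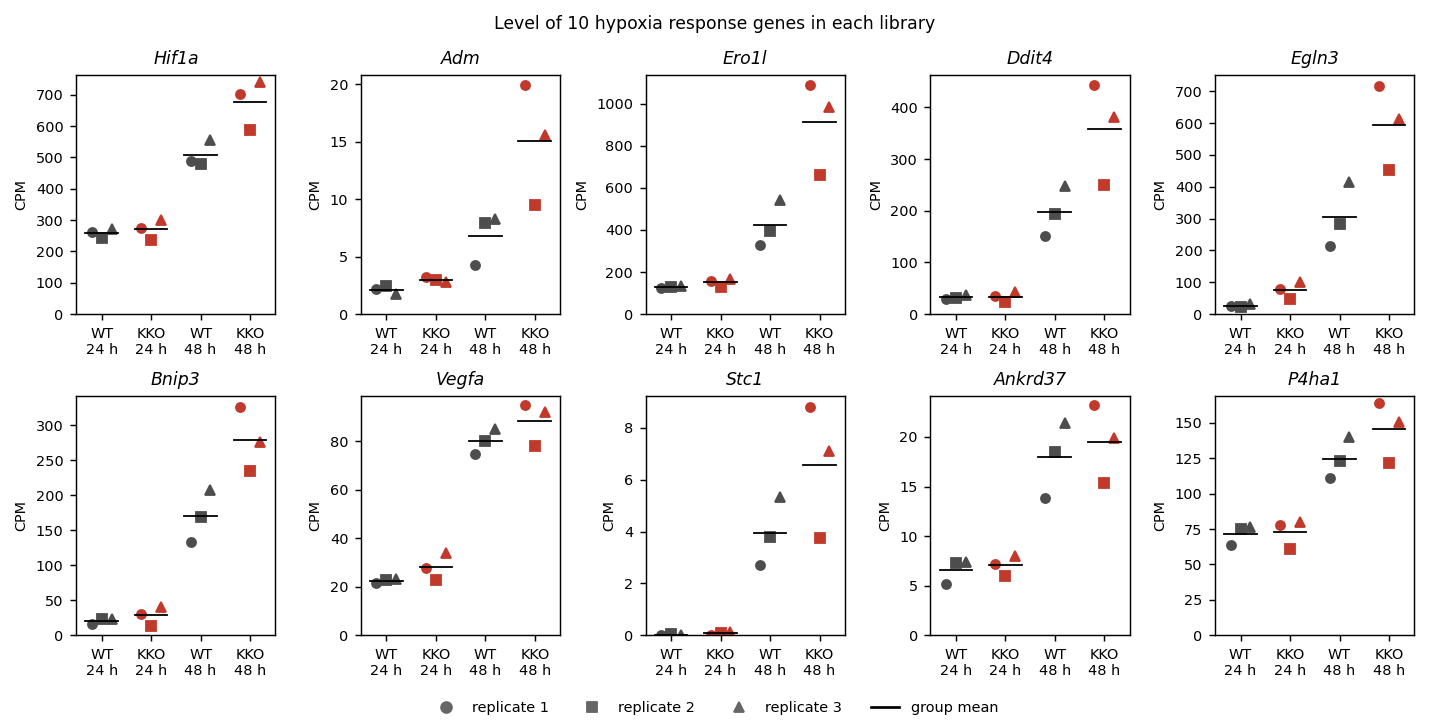
Level of each member in CPM on a linear axis from 0, with 1 point per library, a symbol per replicate number, and a line at the mean of each group of 3. Every member sits higher at 48 h than at 24 h, and at 48 h KKO replicate 2 (square) is the lowest KKO library in all 10 panels.

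At 24 h, edgeR called 0 of the 10 members between genotypes and 2.33% of all tested genes. At an unadjusted p under 0.05 were 2 members (Egln3 and Vegfa) and 11.2% of all tested genes. DESeq2 and limma-voom each called 1 member, Egln3. Egln3 was at 24.3, 21.6 and 30.6 CPM in WT libraries and 78.6, 48.3 and 101 CPM in KKO libraries. The groups did not overlap and the lowest KKO library was well above the highest WT library. The log2 difference was 1.57 ± 0.34, or 2.98-fold, with an adjusted p of 0.0536.

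The call of Egln3 at 24 h turned on the settings: 10 of 24 alternatives called it, with adjusted p from 0.000129 to 0.222 and log2 differences from 1.32 to 1.81. Leaving out KKO 24 h replicate 2 (adjusted p = 0.0143), WT 48 h replicate 1 (0.0333) or WT 48 h replicate 3 (0.0256) brought it under the threshold.

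Of the other members at 24 h, only Adm did not overlap between groups, at 2.18, 2.46 and 1.71 CPM in WT and 3.22, 2.96 and 2.81 CPM in KKO. Its log2 difference was 0.50 ± 0.31 (adjusted p = 0.674). Non-overlap with KKO higher thus held for 2 of 10 members and for 9.93% of all tested genes. Vegfa was at 21.5, 22.9 and 23.4 CPM in WT and 27.8, 22.8 and 34.1 CPM in KKO, with KKO replicate 2 inside the WT range (log2 0.32 ± 0.12, adjusted p = 0.291). Hif1a overlapped at 261, 244 and 273 CPM in WT and 275, 236 and 299.9 CPM in KKO (log2 0.06 ± 0.10, adjusted p = 0.955). Stc1 had 2 counts over the 3 WT libraries and 5 over the 3 KKO libraries, too few for a comparison. The log2 differences of Ero1l, Ddit4, Bnip3, Ankrd37 and P4ha1 lay between 0.02 and 0.45, with overlapping libraries. The median over the 10 members was 0.27, against -0.00 over all tested genes.

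The KKO effect was compared between the times with an interaction term in the same fit. edgeR called 0 of the 10 members and 4.18% of all tested genes. At an unadjusted p under 0.05 were 2 members (Hif1a and Ero1l), near the 22.6% of all tested genes. DESeq2 called 1 member, Ero1l, and limma-voom called 0. The effect on the log2 scale was larger at 48 h by 0.89 ± 0.29 for Ero1l (adjusted p = 0.106), 0.35 ± 0.14 for Hif1a (0.152), 0.81 ± 0.39 for Ddit4 (0.252) and 0.63 ± 0.41 for Adm (0.374). For Egln3 the difference was -0.61 ± 0.46 (adjusted p = 0.468). Ero1l and Hif1a were called without KKO 48 h replicate 2, and Ero1l without WT 48 h replicate 3. With each replicate number as a block within its genotype, 3 members were called (Ddit4, Ero1l and Hif1a). That block treats equal numbers as pairs, which sex-linked transcripts do not bear out in KKO. The mixed KKO library is replicate 1 at 24 h and replicate 3 at 48 h.

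**Figure D2:**
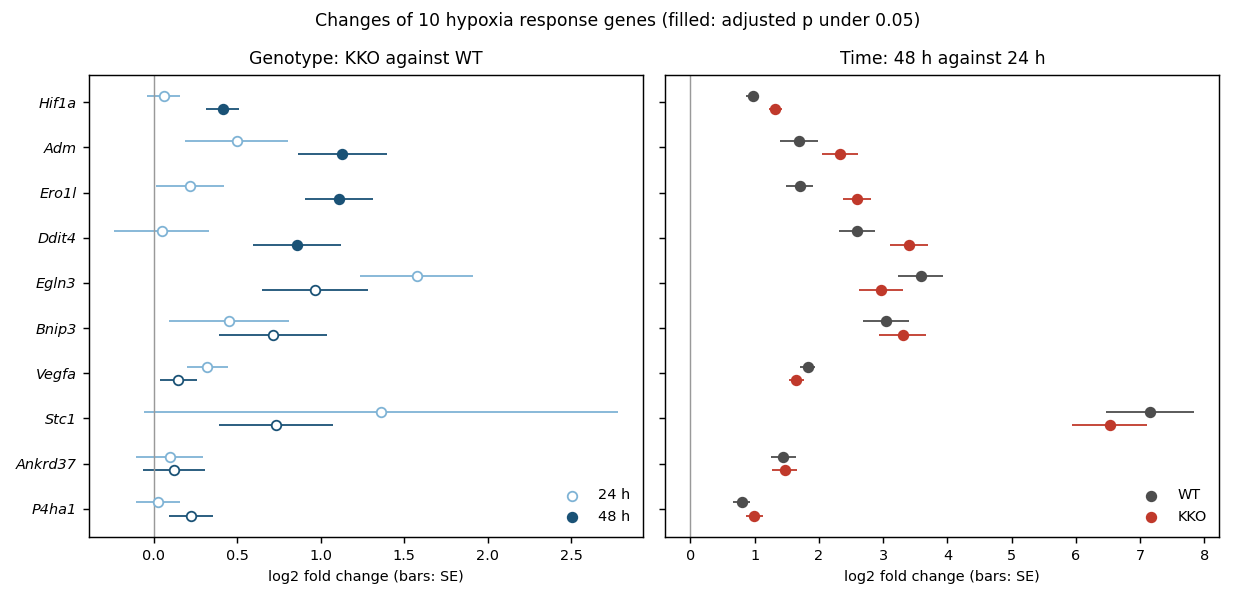
Fitted log2 fold change of each member with its SE, for KKO against WT at 24 h and 48 h (left) and for 48 h against 24 h in WT and KKO (right); filled points have an adjusted p under 0.05. On the left 4 points at 48 h and none at 24 h are filled, and on the right all 20 are; the values of Stc1 against 24 h rest on 2 and 5 counts there.

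Between 24 h and 48 h of activation every member rose in both genotypes. All 10 were called higher in WT, where 60.8% of all tested genes were called and 31.0% were called higher. All 10 were also called higher in KKO, where 67.8% were called and 34.4% were called higher. The median rise of the members was 1.76 on the log2 scale in WT and 2.46 in KKO, against -0.00 and 0.00 over all tested genes. These comparisons share their libraries with the genotype comparisons, so the 2 kinds of difference are not independent.

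The sensor gene Egln3 had a large rise, 3.58 ± 0.36 on the log2 scale in WT (11.96-fold, adjusted p = 2.44e-05) and 2.97 ± 0.34 in KKO (7.84-fold). Bnip3 rose 8.22-fold in WT (3.04 ± 0.36) and 9.86-fold in KKO (3.30 ± 0.36). Its libraries at 24 h were at 16.0, 22.8 and 23.2 CPM in WT and 30.2, 14.0 and 40.7 CPM in KKO, all below every library at 48 h. Ddit4 rose 6.03-fold in WT and 10.6-fold in KKO, from 29.5, 30.9 and 38.0 CPM in WT and 35.8, 23.8 and 42.0 CPM in KKO at 24 h.

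Ero1l was tightly grouped at 24 h, at 127, 130.4 and 134 CPM in WT and 158, 130.3 and 166 CPM in KKO, and spread out at 48 h. It rose 3.24-fold in WT and 6.02-fold in KKO. Hif1a itself rose less, 1.96-fold in WT (0.97 ± 0.10) and 2.50-fold in KKO (1.32 ± 0.10), with non-overlapping libraries. P4ha1 had the smallest log2 rise of the 10 in both genotypes, 0.80 ± 0.13 in WT and 0.996 ± 0.13 in KKO. Its libraries at 24 h were at 63.7, 75.3 and 76.3 CPM in WT and 78.0, 60.9 and 80.1 CPM in KKO.

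Of the secreted factors, Vegfa rose 3.54-fold in WT (adjusted p = 4.89e-08) and 3.14-fold in KKO, and Adm rose 3.23-fold and 5.01-fold. Stc1 went from 2 counts to 248 over the WT libraries, a ratio of 177 with an exact 95% interval of 48.4 to 1467 that covers counting error only. In KKO it went from 5 counts to 394, a ratio of 101 (43.0 to 314). Stc1 was thus close to absent from the 24 h libraries and present in all 6 at 48 h. Ankrd37 rose 2.72-fold in WT and 2.77-fold in KKO, from 5.18, 7.27 and 7.36 CPM and 7.23, 5.95 and 8.002 CPM. All 10 members were non-overlapping between the times in both genotypes, as were 34.4% of tested genes in WT and 35.7% in KKO in this direction. Only a required change of at least 2-fold moved the counts, to 8 in WT (without Hif1a and P4ha1) and 9 in KKO (without P4ha1).

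Set against each other per kilobase of exon, Hif1a was the highest member at 24 h, at 44.0 ± 2.49 CPM per kb in WT and 45.9 ± 5.43 in KKO (SD, n = 3). Ero1l followed at 24.7 ± 0.745 in WT and 28.7 ± 3.56 in KKO, where Egln3 stood within its SD at 28.5 ± 9.92. At 48 h Egln3 and Ddit4 led, at 114.5 ± 38.4 and 113 ± 27.5 in WT and 224 ± 49.8 and 204 ± 55.9 in KKO, and the 2 genes differed by less than their SDs in either genotype. Hif1a held the third place in WT (86.1 ± 7.09) and the fifth in KKO (115 ± 13.4). Vegfa, Ankrd37, Adm and Stc1 held the 4 lowest places in every group, in that order, with Stc1 at no more than 1.56 ± 0.615 CPM per kb, its level in KKO at 48 h. The lengths are unions of GENCODE exons, which can exceed the transcript in use.

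Most members had the same order of libraries within a group. The orders given here were picked as those that most members show, so the shares of all genes are background and not a test. At 48 h KKO replicate 2 was the lowest KKO library for all 10 members, as for 43.5% of tested genes, and replicate 1 was also the highest for 9 of them, as for 25.5% of genes. Among WT libraries at 48 h, replicate 1 was the lowest and replicate 3 the highest for 9 of the 10 members, against 23.7% of tested genes, with Hif1a the exception. At 24 h KKO replicate 2 was the lowest for 8 of the 10, against 46.6% of genes. Of these, WT replicate 3 is the WT library with Y-linked transcripts, and KKO replicate 2 is the KKO library with Xist in their place. Y-linked transcripts were at 142 and 154 CPM in WT replicate 3 and at 125 to 180 CPM in KKO replicates 1 and 3. The 2 genotypes were thus not balanced for them at either time.

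Within libraries of the same reading of sex-linked transcripts, the direction could be compared as values only, with 1 KKO and 2 WT libraries for Xist and 1 of each for Y-linked transcripts. At 48 h KKO was higher for 9 of the 10 members among Xist libraries and for all 10 among Y-linked libraries. Ero1l was 1.82 and 2.01 times higher, Adm 1.56 and 2.40 times, Ddit4 1.45 and 1.79 times and Hif1a 1.21 and 1.26 times. At 24 h KKO was higher for 5 of the 10 members in the first comparison and for all 10 in the second, and Egln3 was 2.10 and 3.30 times higher. Both counts at 24 h include Stc1, which had too few counts there for a comparison. With the share of Y-linked transcripts as a covariate, an alternative chosen after seeing the data, 5 members were called at 48 h (the 4 above and Egln3) and 1 at 24 h (Egln3).

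**Figure D3:**
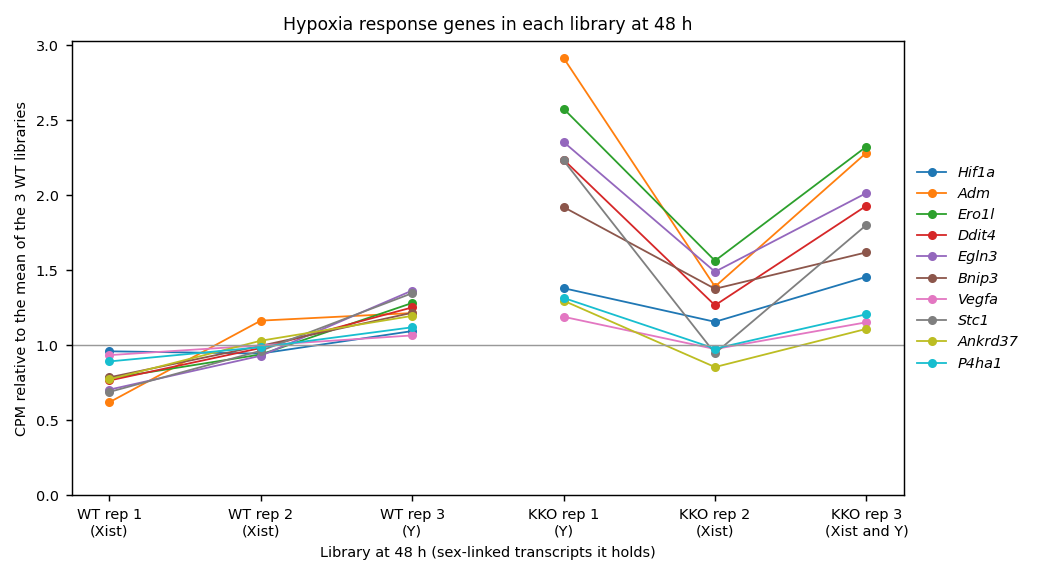
CPM of each member in the 6 libraries at 48 h, divided by its mean over the 3 WT libraries, on a linear axis from 0; lines join the same gene, and the sex-linked transcripts of each library are in brackets. KKO replicate 2 is the lowest KKO library for all 10 members. For Hif1a, Adm, Ero1l, Ddit4, Egln3 and Bnip3 it still stands above all 3 WT libraries.

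Another 78 genes of the hypoxia pathway were listed by role, and 67 of them were tested. This list too was made with earlier results of these data known, so its counts are not an independent test. At 48 h 22 were called higher in KKO and 4 lower, with a median log2 difference of 0.26, where 12.4% of all tested genes were called higher and 11.9% lower. This count moved with single libraries: it was 6 higher and 0 lower without KKO replicate 1, 12 and 1 without WT replicate 1, 12 and 1 without WT replicate 2, 13 and 1 without KKO replicate 3, and 31 and 5 without KKO replicate 2. Without the 2 mixed libraries it was 6 and 1. The calls of Egln1, Plod2 and Angptl4 named below held in 11 of 24 alternatives each and that of Nrp1 in 8.

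Among HIF subunits and oxygen sensors, 3 of 9 rose. Epas1, which encodes HIF2A, was at 14.8 CPM in KKO and 6.74 CPM in WT (log2 1.14 ± 0.20, adjusted p = 0.00150), Hif3a rose by 0.80 ± 0.20 and the main HIF prolyl hydroxylase gene Egln1 by 0.33 ± 0.11. Of the genes of glucose use, 8 of 16 rose and all 16 differences were above 0. The largest were Gbe1 and Gys1, the branching enzyme and the synthase of glycogen, at 0.99 ± 0.17 and 0.69 ± 0.17, and Pfkfb4, a regulator of glycolytic flux, at 0.54 ± 0.14. Of 4 mitochondrial genes 3 rose: Bnip3l, the homologue of Bnip3, by 0.62 ± 0.16, Fam162a by 0.55 ± 0.11 and Higd1a by 0.38 ± 0.12.

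Of 6 genes of matrix and secretory oxidation 2 rose, P4hb, which encodes the protein disulfide isomerase that ERO1 oxidises, by 0.53 ± 0.09, and Plod2, a collagen lysyl hydroxylase, by 0.36 ± 0.12. Of 5 secreted factors 1 rose and 1 fell. The fall was that of Angptl4, an inhibitor of lipoprotein lipase, by 0.42 on the log2 scale with overlapping libraries. The transcription repressor genes Mxi1 and Bhlhe40 rose by 0.66 ± 0.15 and 0.31 ± 0.08, 2 of 7 of their role. Of 9 other targets 2 rose, the lipoprotein receptor gene Vldlr by 0.68 ± 0.20 and Car9, a carbonic anhydrase gene named after its value was seen, from 0.301 to 0.894 CPM. Car12 fell by 0.31 and Tfrc, the transferrin receptor gene, by 0.26. Among 11 partners of the members, such as receptors of their ligands, Sesn3 rose by 0.47 ± 0.05 and the VEGF co-receptor gene Nrp1 fell by 0.61.

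At 24 h 1 of the 67 genes was called between genotypes, Bhlhe40, which was higher in KKO by 0.47 ± 0.08 (195 against 141 CPM, adjusted p = 0.00688). Over all tested genes 2.33% were called, so this count is no higher than the background. Between times the KKO effect was called as different for 3 of the 67, a share near the 4.18% of all tested genes: P4hb by 0.49 ± 0.13, Sesn3 by 0.49 ± 0.08 and Nrp1 by -1.38 ± 0.29. Nrp1 was at 14.0, 15.3 and 12.2 CPM in WT and 24.5, 23.7 and 22.4 CPM in KKO at 24 h, and at 15.9 to 20.6 CPM and 8.41, 17.3 and 10.2 CPM at 48 h. Its KKO libraries were thus all above WT at the earlier time, and at the later time KKO replicates 1 and 3 were below every WT library. Nrp1's call of this difference was kept in 15 of 24 alternatives, that of P4hb in 11 and that of Sesn3 in 23.

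**Figure D4:**
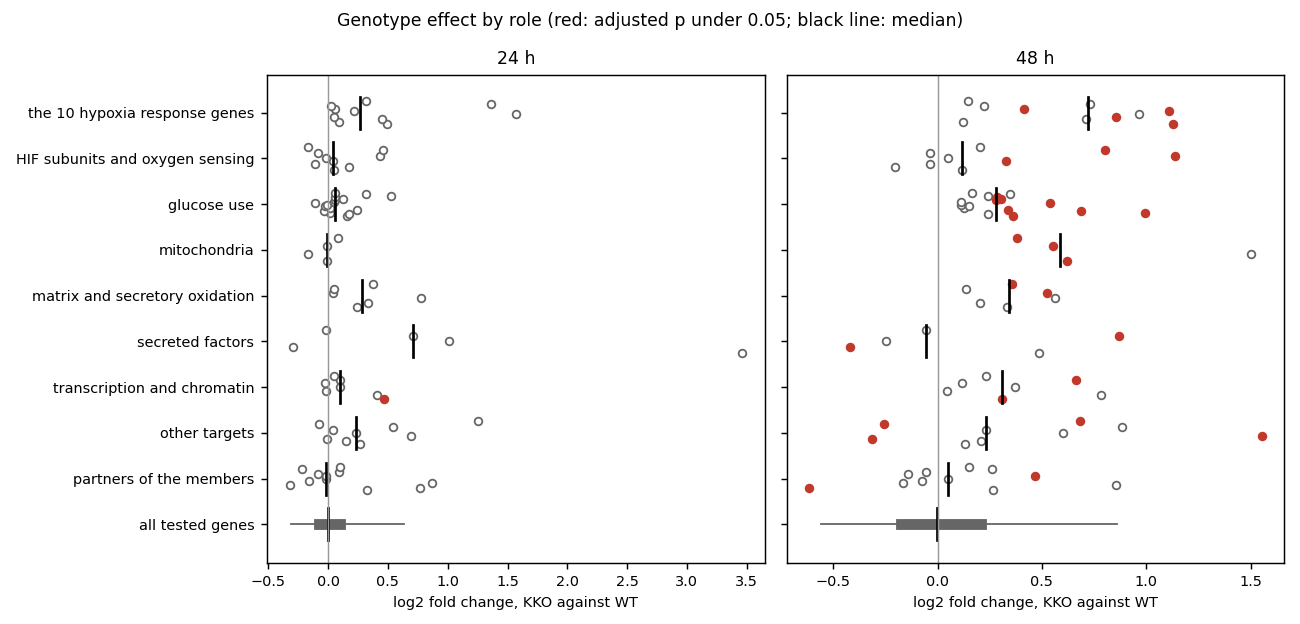
Fitted log2 difference of KKO against WT at 24 h (left) and 48 h (right) for each tested gene, by role, with a line at each median; red points have an adjusted p under 0.05, and the bars for all tested genes span the middle 50% and 90%. At 48 h the members have a median of 0.72, and all 16 genes of glucose use lie to the right of 0.

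With time, 52 of the 67 genes rose and 7 fell in WT, against 31.0% and 29.7% of all tested genes. In KKO 54 rose and 7 fell, against 34.4% and 33.4%. Large rises in WT were those of Vldlr (7.76 ± 0.37 on the log2 scale, from 0.136 to 30.5 CPM), Ramp3, a co-receptor for adrenomedullin (5.57 ± 0.21), Stc2, the paralogue of Stc1 (4.45 ± 0.16), and P4ha2, the paralogue of P4ha1 (3.91 ± 0.27). Angptl4 fell by 0.58 in WT and by 0.70 in KKO. In KKO the corresponding rises were 7.19 ± 0.33 for Vldlr, 4.54 ± 0.20 for Ramp3, 4.41 ± 0.16 for Stc2 and 3.69 ± 0.26 for P4ha2.

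Over the 12 libraries, the genes whose log2 CPM followed a member most closely were sought among the 9545 tested genes averaging 5 CPM or more. For Ero1l these were Rnh1, Gbe1 and Impa2, each at a Pearson r of 0.997, and for Ddit4 they were Gys1 (0.999), Bsg (0.998) and Pgm2 (0.998). Hif1a was followed by Bcl2 (0.996), Capn2 (0.995) and Fosl2 (0.994), and Adm by A830010M20Rik (0.991), Stx4a (0.987) and Trip10 (0.986). All these libraries share the change between 24 h and 48 h, which such correlations include.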

How the data were processed

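RNA from 12 libraries of activated mouse CD4+ T cells was analysed as RSEM expected counts per gene symbol, deposited by the authors without normalization. FastQC, RSEM and mm10 are named per the submitters' processing notes. A human reference is named in the design text of the series, whereas symbols and file headers are those of mouse. The RSEM version, aligner, annotation and use of strand are not given in the sources used here. Another 6 columns of the table were not used, since no sample label describes them, and 1 row named unknown (at most 2 counts in a library) was dropped.

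Counts were rounded, filtered with filterByExpr on the 4 groups (13196 genes) and fitted in R 4.3.3 with edgeR 4.0.16: TMM factors, robust quasi-likelihood F tests, 1 mean per group over all 12 libraries, 8 residual degrees of freedom, 2-sided, with Benjamini-Hochberg adjustment over all tested genes at 0.05. CPM used TMM-scaled totals. Each SE of a log2 difference was derived from its test, as the absolute difference divided by the square root of the F statistic. Alternatives were other scalings and filters, DESeq2 1.42.0, limma 3.58.1 (voom), fewer libraries, other thresholds, a replicate block and a covariate for Y-linked transcripts.

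The members, the other gene lists and the markers were chosen with earlier results of these data known. All members are named, with up to 3 called genes per role and comparison that average at least 2 CPM, and the 3 genes closest in pattern to each member that differed between genotypes. The values of 1 gene that this rule names are not reported here. Promoters and positions came from RefSeq and lengths from GENCODE; bases after a start were searched but not printed. Replicate numbers are shared by the groups, but no label says what they mark. Deviations of same-numbered libraries at the 2 times correlated at 0.126, 0.103 and 0.343 in WT and 0.0287, 0.0852 and 0.0408 in KKO. Since sex-linked transcripts exchange places between KKO replicates 1 and 3, the numbers were not taken as pairs there. No 2 libraries of a group agreed within counting noise, so none was treated as a library deposited more than once; this does not show that they are separate animals or cultures.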

Additional observations from a re-analysis of the deposited data

How the results depend on the processing

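Ero1l stayed called at 48 h under all 24 alternatives, Hif1a and Adm under 22 and Ddit4 under 14. The number of members called between genotypes at 48 h was 4; it was 2 with a required 2-fold change and 1 without the 2 mixed libraries, and ranged from 3 to 6 when single libraries were left out. With only the 6 libraries of 48 h, Adm (adjusted p = 0.0523) and Ddit4 (0.0585) were not called and Bnip3 (0.0342) was, as it was without KKO 24 h replicate 2 (0.0245); Stc1 was called without KKO 48 h replicate 2; and with no filter on low counts Ddit4 (0.0787) was not. At 24 h the number was 0, and 1 (Egln3) with RLE or upper-quartile scaling, DESeq2, limma-voom, at least 1 CPM in 6 libraries, the replicate block or the covariate for Y-linked transcripts, with a range of 0 to 2 without single libraries (2, Egln3 and Vegfa, without KKO 24 h replicate 2). For the difference between times it was 0, and 1 with DESeq2, 1 with the replicate block, 3 with the replicate block within genotype and 4 with that covariate, with a range of 0 to 2 without single libraries. The replicate block changed no other count of members by over 1.5 times: at 48 h it gave 5, and for both time comparisons 10. In WT, where each same-numbered correlation between times was over 0.1, libraries did not all correlate best with their own number.

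Members with log2 differences near 0 changed sign. At 24 h these were, with the covariate for Y-linked transcripts, Hif1a (-0.015), Ddit4 (-0.16), Ankrd37 (-0.033) and P4ha1 (-0.073), and P4ha1 without the mixed libraries (-0.028). Without single libraries the ranges at 24 h were -0.021 to 0.14 for Hif1a, -0.13 to 0.24 for Ddit4, -0.043 to 0.19 for Ankrd37 and -0.047 to 0.13 for P4ha1. At 48 h Ankrd37 ranged from -0.036 to 0.26 and was -0.041 with the covariate. For the difference between times the ranges were -0.060 to 0.61 for Bnip3, -3.00 to 0.080 for Stc1 and -0.13 to 0.16 for Ankrd37, which was -0.0080 with the covariate. The cause of these shifts was not tested.

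Over all genes, the calls were 307 at 24 h, 3209 at 48 h and 552 for the difference. At 24 h they were 483 with DESeq2, 524 with the 6 libraries alone, 128 at an adjusted p under 0.01, 71 with a 2-fold change, 107 without the mixed libraries and 132 to 505 without single libraries. At 48 h they were 1536 with the 6 libraries, 1363 at an adjusted p under 0.01, 561 with a 2-fold change, 1386 without the mixed libraries and 1405 to 5362 without single libraries, the highest without KKO 48 h replicate 2. For the difference they were 1128 with DESeq2, 931 with the replicate block within genotype, 85 at an adjusted p under 0.01, 148 with a 2-fold change, 54 without the mixed libraries, 1424 with the covariate and 143 to 3217 without single libraries. With a 2-fold change the time comparisons called 2028 in WT and 2677 in KKO, against 8017 and 8945. With 3 libraries per group, and Stc1 at 2 and 5 counts at 24 h, small differences and that gene at 24 h were not resolved.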
